A study of Mus musculus with 84 samples.

Results

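The genes that encode the proteins of the cytosolic ribosome were followed in neuronal nuclei of the mouse frontal cortex after injection of a psychedelic. Members were chosen by name alone: protein-coding genes whose symbol begins with Rpl or Rps and a digit, together with Rplp0, Rplp1, Rplp2 and Rpsa, leaving out the Rps6k kinases and every name with the pseudogene mark -ps. Of 55401 gene IDs, 93 symbols fitted the name pattern, 5 of these (Rps4l, Rps12l1, Rpl6l, Rps3a2 and Rps3a3) were pseudogenes in RefSeq, and 88 members remained. They comprised 43 large-subunit and 31 small-subunit genes, the 3 genes of the ribosomal stalk, 7 paralogs of core genes, 3 genes with retrogene-type names (Rpl32l, Rpl37rt and Rps27rt) and Rps19bp1, which encodes a protein that binds Rps19 and is no ribosomal protein itself. A total of 84 passed the filter on low counts. The 4 others were Rpl3l, Rps27rt, Rpl39l with 1 count over all libraries, and Rpl10l with 0.

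The mice were of the strain 129S6/SvEvTac and aged 12 weeks. One group received vehicle, and the others received DOI (2,5-dimethoxy-4-iodoamphetamine), an agonist of the serotonin 2A receptor, and were examined 24 h, 48 h or 7 days later. No genotype other than the strain is given, and the labels state neither dose nor sex. Each group had 4 mice with 2 RNA libraries each (SMART-seq2 cDNA and Nextera XT libraries), which makes 16 mice and 32 libraries. The time after vehicle injection is not given, so all DOI groups were compared with the same 4 vehicle mice. Nuclei had been sorted for NeuN, a neuronal nuclear protein, so the samples were meant to hold RNA of neuronal nuclei. Most ribosomal protein mRNA is translated in the cytoplasm. Mitochondrial transcripts and glial markers were also counted in all groups, as given below, and RNA from cytoplasm or other cells was not measured apart. In such bulk samples fewer nuclei of a type and less RNA per nucleus cannot be told apart.

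Ribosomal proteins assemble with ribosomal RNA in the nucleolus into a small subunit, which decodes the mRNA, and a large subunit, which joins the amino acids. Their mRNAs are among the most abundant of most cells and carry at their 5′ end a run of pyrimidines, the terminal oligopyrimidine (TOP) tract, through which the kinase mTOR and the RNA-binding protein Larp1 set their translation. In neurons ribosomes also work in dendrites, where local synthesis serves synaptic plasticity.

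The start sites were searched for the TOP tract and for promoter motifs. RefSeq start sites (GRCm38.p6, 250 bases before to 50 bases from the start) were found for 68 of the 88 members, with 80 starts in all. The other 20 members had no entry. The sequences below show 30 bases before the annotated start and 20 bases from it, 5′ to 3′. Capitals mark the longest run of a C followed by at least 4 C or T that begins within 10 bases of the start. Rpl27a, Rps27 and Rpl7a were chosen as genes that were higher after DOI and have such a run, Rps28 and Rpl24 as genes that were higher and have none in that window, and Rps6 and Rpl15 as genes that have a run and were not called.
Rpl27a, chr7:109519165-109519214, plus strand: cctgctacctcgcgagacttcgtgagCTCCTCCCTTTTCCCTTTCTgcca
Rps27, chr3:90213629-90213678, minus strand: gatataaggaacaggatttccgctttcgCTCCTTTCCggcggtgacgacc
Rpl7a, chr2:26910777-26910826, plus strand: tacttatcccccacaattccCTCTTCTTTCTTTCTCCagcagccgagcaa
Rps28, chr17:33824543-33824592, minus strand: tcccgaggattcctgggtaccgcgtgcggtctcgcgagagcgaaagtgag
Rpl24, chr16:55966245-55966294, plus strand: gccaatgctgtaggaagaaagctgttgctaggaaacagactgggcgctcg
Rps6, chr4:86857348-86857397, minus strand: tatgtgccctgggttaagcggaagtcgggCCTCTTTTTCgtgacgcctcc
Rpl15, chr14:18270967-18271016, minus strand: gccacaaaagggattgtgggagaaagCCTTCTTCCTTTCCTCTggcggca
The run in Rpl27a was 20 bases long, that in Rpl7a and in Rpl15 17 bases, that in Rps6 10 bases and that in Rps27 9 bases. Rps28 and Rpl24 show only that these letters are not in this window. A C followed by at least 4 pyrimidines stood exactly at 15 of 80 member starts (18.8%), against 2.51% of all 32851 starts in the table. Beginning within 10 bases of the start it was found at 43 of 80 member starts (53.8%), against 30.7% of all. A longer run, a C followed by at least 7 pyrimidines, was found there at 25 of 80 member starts (31.2%), against 8.11% of all. Among members called higher at 24 h, 8 of 37 starts (21.6%) had the longer run, and among tested members not called 17 of 38 (44.7%). For the shorter run within 10 bases these shares were 48.6% and 55.3%, and for the run exactly at the start 10.8% and 26.3%. The differences were not tested. On either strand of the whole 300-base window, TTCCGG, the core bound by ETS factors, occurred at 46.2% of member starts and 14.9% of all. It went the other way, with 51.4% of the starts of members called at 24 h and 42.1% of those not called. AAGATGGC, a YY1 core, occurred at 10.0% and 2.75%, CACGTG, the E box, at 10.0% and 7.15%, and TATAAA, the TATA box, at 10.0% and 13.6%. These matches describe letters in a window and are not measured sites.

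In vehicle mice the tested members were of modest abundance in nuclear RNA. Their mean level, in TMM-scaled CPM, which states counts relative to library size, ran from 0.346 to 146 with a median of 16.9. Divided by exon length, so that genes can be compared with each other, the levels ran from 0.480 to 72.5 CPM per kb with a median of 10.4. Rpl4, whose protein lines the tunnel through which the new chain leaves, was highest at 72.5 CPM per kb ± 19.1 (SD, n = 4). Rps15 followed at 44.8 CPM per kb ± 7.81 (SD, n = 4), and Rpl8, a protein near the peptidyl transferase centre, at 39.5 CPM per kb ± 9.75 (SD, n = 4). Rps15 and Rpl8 lay within each other's spread. Averaged over all 16 mice the order was different: Rplp1 stood first with 90.0 CPM per kb, then Rpl4 with 89.3 and Rpl8 with 66.1. The proteins of the core ribosome are made for 1 particle, whereas the per-length levels of these nuclear exon counts covered the wide range given. Exon lengths of the gene models ran from 383 to 6270 bases and 60 of 84 tested members have at least 1 pseudogene of their name in the annotation, so reads may be missing from near-identical copies. Across the 84 members the per-length level and the number of named pseudogenes had a Spearman rho of -0.32, given as a description across genes of the same libraries.

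Some mice stood apart, and the values belong before the comparisons. Total counts per mouse were 9151680 to 11517452 in vehicle mice and 5834248 to 8090559 at 24 h and 48 h, without overlap. The smallest level that 3 counts give was 0.254 to 0.502 CPM over the mice. The 7-day group was split: the summed level of the 88 members was 2120 CPM in mouse 1 and 1894 in mouse 3, near the vehicle mice, but 3493 in mouse 2 and 3215 in mouse 4, near the 24 h and 48 h mice. CT010467.1, an 18S ribosomal RNA feature whose many near-identical copies make its counts uncertain, followed the same split, with 87.3 and 63.4 CPM in 7-day mice 1 and 3 and 6171 and 4622 CPM in mice 2 and 4. The file headers carry mouse number 6 for 24 h mouse 1, 48 h mouse 2 and 7-day mouse 2, where the labels give other numbers.

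A day after DOI the ribosomal protein genes were higher as a group. The summed level of the 88 members was 2028, 2082, 1815 and 1737 CPM in the 4 vehicle mice and 3104, 3206, 2907 and 3810 CPM in the 4 mice at 24 h, so every 24 h mouse lay above every vehicle mouse. The members took 0.167% to 0.200% of all counts in vehicle mice and 0.293% to 0.398% at 24 h. With an adjusted p below 0.05 as the line for a call (edgeR quasi-likelihood, Benjamini-Hochberg over all 17941 genes), 43 of 84 members rose (51.2%) and 0 fell, with 61 members at an unadjusted p below 0.05, where 38.4% of all genes were. Among all tested genes 13.8% were called higher, 10.4% lower and 24.2% in either direction. The median log2 fold change of the 84 members was 0.81 (quartiles 0.48 and 1.19), which is a 1.75-fold difference, against 0.03 for all tested genes and -0.08 for protein-coding genes. In 47 members (56%) all 4 mice at 24 h were above all 4 vehicle mice, against 18.5% of all genes. These include Rpl32l, which passed the filter on low counts only through DOI mice. The fold change of the genes that rose ran from 1.58 to 3.50. Without 24 h mouse 4, which had the highest sum, 28 members and 13.9% of all genes were called.

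**Figure D1:**
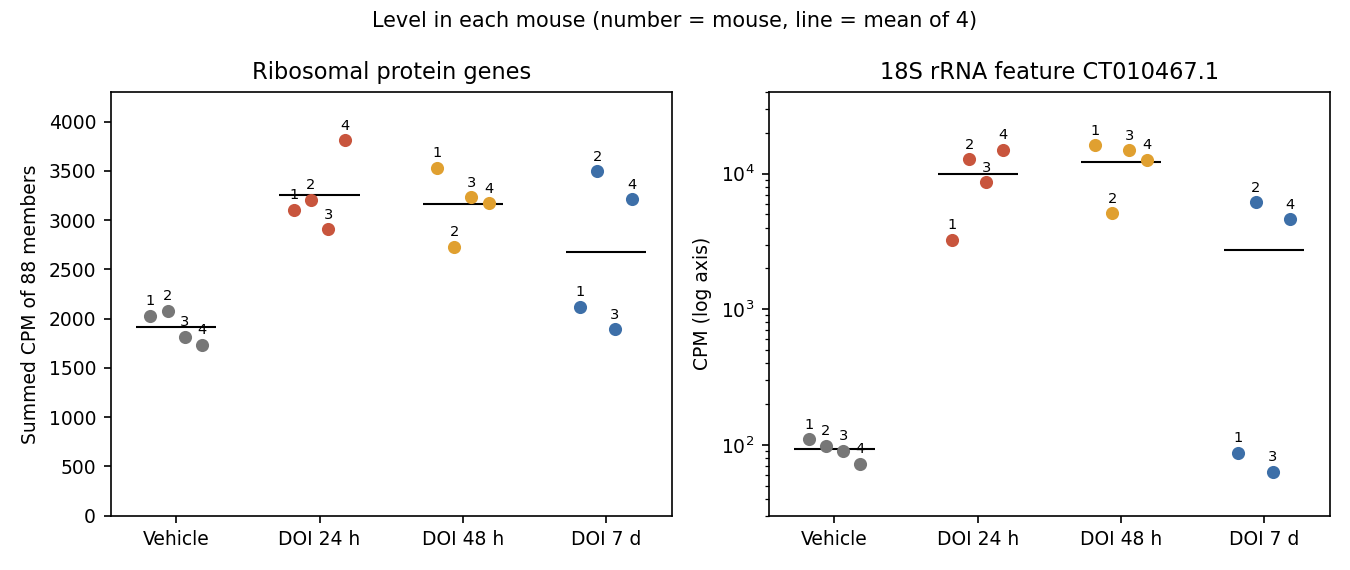
Left, summed CPM of the 88 members in each mouse, on an axis from 0; right, CPM of the 18S ribosomal RNA feature CT010467.1 on a log axis, with points for mice (numbered as in the labels) and lines for the mean of 4. The 24 h and 48 h mice lie between 2729 and 3810 CPM in members, above the vehicle mice at 1737 to 2082 CPM, while the 7-day mice divide into 1 and 3 near vehicle and 2 and 4 near the earlier times, in both panels.

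Several measures of the libraries moved with this rise. The 18S feature was at 72.3 to 110.0 CPM in vehicle mice, 3258 to 15064 CPM at 24 h and 5108 to 16124 CPM at 48 h. Mitochondrial genes took 0.0171% to 0.0701% of the counts in vehicle mice, 0.0621% to 0.101% at 24 h and 0.108% to 0.268% at 48 h. The 300 features named as ribosomal protein pseudogenes summed to 53.9 to 64.0 CPM in vehicle mice and to 104 to 142 CPM at 24 h and 48 h. Of the 28 such features that could be tested, 6 rose at 24 h and 9 at 48 h, and 0 fell. Among all tested genes 13.8% and 16.8% were called higher at these times, and 10.4% and 13.3% lower. With the log2 level of the 18S feature as a covariate, a fit chosen after the data were seen, 0 members were called at 24 h and 0 at 48 h, as were 0 of all genes at both times. In that fit 0 members had an unadjusted p below 0.05 at either time, and their median log2 fold change was -0.03 and -0.14. Group explained 75.1% of the variance of that level, so in this design the 18S level and the treatment cannot be told apart. Counts thinned to 5834248 per mouse gave 46 called members at 24 h and 45 at 48 h, with 23.9% and 29.6% of all genes called.

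Summed markers of astrocytes, oligodendrocytes and microglia were not higher at 24 h or 48 h, while endothelial markers were at trace levels. Summed astrocyte markers (6 genes) were at 269 to 307 CPM in vehicle mice, 169 to 255 CPM at 24 h and 120 to 290 CPM at 48 h. Oligodendrocyte markers (6 genes) were at 164 to 364, 160 to 236 and 183 to 242 CPM, and microglia markers (7 genes) at 147 to 179, 81.3 to 169 and 101 to 150 CPM. Of these lists 1 gene was called at 24 h, Mbp of myelin, which fell (log2 fold change -0.83, SE 0.28, edgeR adjusted p = 0.0367), and 1 at 48 h, the myelin gene Cnp, which fell (-1.02, edgeR adjusted p = 0.0457). The 5 endothelial markers summed to 0.295 to 1.59 CPM in vehicle mice and 0.893 to 13.6 CPM at 24 h, the highest being 13.6 in mouse 1 and 12.4 in mouse 4. Cldn5 was at 0 in every vehicle mouse, and the 1 gene of that list that passed the filter on low counts, Ly6c1, was at 0 to 0.584 CPM in vehicle mice and 0.380 to 8.76 CPM at 24 h. It passed through DOI mice alone, as 0 vehicle mice reached the filter's level of 1.26 CPM, so no test of it is given. Neuronal markers (8 genes) were present in all groups, with 2 higher and 3 lower at 24 h. The sorted marker's own gene, Rbfox3, was at 46.3 to 68.1 CPM in vehicle mice and 88.4 to 115 CPM at 24 h, and the kinase gene Camk2a at 151 to 222 and 622 to 2126 CPM. Lower at 24 h and called were Gad1 (529 to 706 CPM in vehicle mice, 290 to 448 CPM at 24 h) and Gad2 of inhibitory neurons (217 to 303, then 138 to 188 CPM) and the synaptic gene Snap25 (3717 to 4334, then 2278 to 3547 CPM). Slc17a7 of excitatory neurons (129 to 171, then 57.7 to 110 CPM) was not called. The part of these differences in the members' rise was not tested.

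Among small-subunit genes 20 of 31 (64.5%) rose at 24 h, by 1.58-fold to 3.50-fold. Rps28, a protein at the exit of the mRNA channel, was at 11.1, 9.67, 9.23 and 7.79 CPM in vehicle mice and 48.7, 26.0, 19.7 and 38.1 CPM at 24 h. The groups did not overlap, and at a log2 fold change of 1.81 (SE 0.37, edgeR adjusted p = 0.00395) it had the largest rise of any called member. Rps27, a zinc-binding protein of the small subunit, went from 15.7, 13.9, 15.7 and 14.0 CPM to 59.7, 39.3, 32.6 and 56.6 CPM, again without overlap (1.66, SE 0.33, edgeR adjusted p = 0.00356). Rps23, which sits at the decoding centre, was at 3.78, 5.57, 4.72 and 3.99 CPM in vehicle mice and 12.3, 11.0, 12.7 and 15.9 CPM at 24 h, with the closest values among the 24 h mice of these 3 genes (1.52, SE 0.33, edgeR adjusted p = 0.00527). Rps2, at the entry of the mRNA channel, rose from 14.2, 15.6, 12.8 and 12.8 CPM to 35.9, 31.7, 26.6 and 26.4 CPM (1.12, SE 0.23, edgeR adjusted p = 0.00400). Rpsa, also known as the laminin receptor precursor, rose too (1.32, SE 0.36, edgeR adjusted p = 0.0155), but 24 h mouse 1 stayed at 13.6 CPM, the level of vehicle mouse 1, while the other 24 h mice were at 25.8 to 32.8 CPM. The gene Rps27a, which encodes a small-subunit protein fused to ubiquitin, had all 4 24 h mice (27.8 to 43.9 CPM) above the vehicle mice (16.2 to 24.4 CPM) and missed the line (0.86, SE 0.32, edgeR adjusted p = 0.0589), which it passed under 4 other settings, DESeq2 among them (adjusted p = 0.0359).

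Among large-subunit genes 20 of 43 (46.5%) rose at 24 h, by 1.69-fold to 3.29-fold. The difference between the subunits in this share was not tested. Rpl32 was at 15.8, 14.6, 13.9 and 10.8 CPM in vehicle mice and 46.9, 43.2, 27.1 and 60.0 CPM at 24 h (log2 fold change 1.69, SE 0.35, edgeR adjusted p = 0.00402). Rpl7a went from 5.10, 4.55, 6.48 and 6.03 CPM to 18.9, 19.3, 11.0 and 17.8 CPM (1.59, SE 0.34, edgeR adjusted p = 0.00448); neither gene's groups overlapped. Rpl27a rose from 12.9, 13.2, 13.5 and 7.30 CPM to 32.7, 32.3, 28.4 and 43.2 CPM (1.54, SE 0.41, edgeR adjusted p = 0.0132), with vehicle mouse 4 below the other vehicle mice. Rpl24, a protein at the bridge between the subunits, rested on few reads, 8 to 15 counts in a vehicle mouse and 20 to 44 in a 24 h mouse, and its rise (1.72, SE 0.57, edgeR adjusted p = 0.0363) was no longer called when any 1 of 6 of the 8 mice was left out, the exceptions being 24 h mice 2 and 3, nor with library 2 only (adjusted p = 0.115). Rpl8 rose from 38.5 to 65.5 CPM in vehicle mice to 68.5 to 137 CPM (0.94, SE 0.25, edgeR adjusted p = 0.0142), and missed the line without 24 h mouse 4 (adjusted p = 0.0575). Rpl4, the member of highest level per length in vehicle mice, was at 194, 158, 121 and 109 CPM in vehicle mice and 147, 243, 240 and 213 CPM at 24 h, with overlap, and was not called (0.53, SE 0.23, edgeR adjusted p = 0.0987) except with just the 24 h and vehicle groups fitted (adjusted p = 0.0484).

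The ratio of summed large-subunit to small-subunit CPM was 1.64, 1.56, 1.66 and 1.53 in the vehicle mice, 1.32, 1.63, 1.58 and 1.37 at 24 h, 1.44, 1.46, 1.46 and 1.61 at 48 h and 1.67, 1.55, 1.73 and 1.59 at 7 days. The lowest values belonged to 24 h mice 1 and 4, and the groups overlapped.

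The stalk, which recruits elongation factors to the large subunit, is built of Rplp0 at its base and pairs of Rplp1 and Rplp2. Rplp1 was at 19.7, 19.0, 14.3 and 15.5 CPM in vehicle mice and 36.4, 62.1, 46.7 and 83.3 CPM at 24 h (log2 difference 1.74, SE 0.39, edgeR adjusted p = 0.00592). Rplp2 was at 25.9, 24.7, 25.1 and 21.4 CPM and then at 41.3, 55.5, 52.6 and 59.3 CPM (1.10, SE 0.22, edgeR adjusted p = 0.00372). For both genes every 24 h mouse was above every vehicle mouse. Rplp0 was at 23.0, 17.9, 11.0 and 12.6 CPM in vehicle mice and at 8.22, 25.1, 27 and 26.2 CPM at 24 h, where mouse 1 was the lowest of all 16 mice, and it was not called (0.43, SE 0.34, edgeR adjusted p = 0.368).

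**Figure D2:**
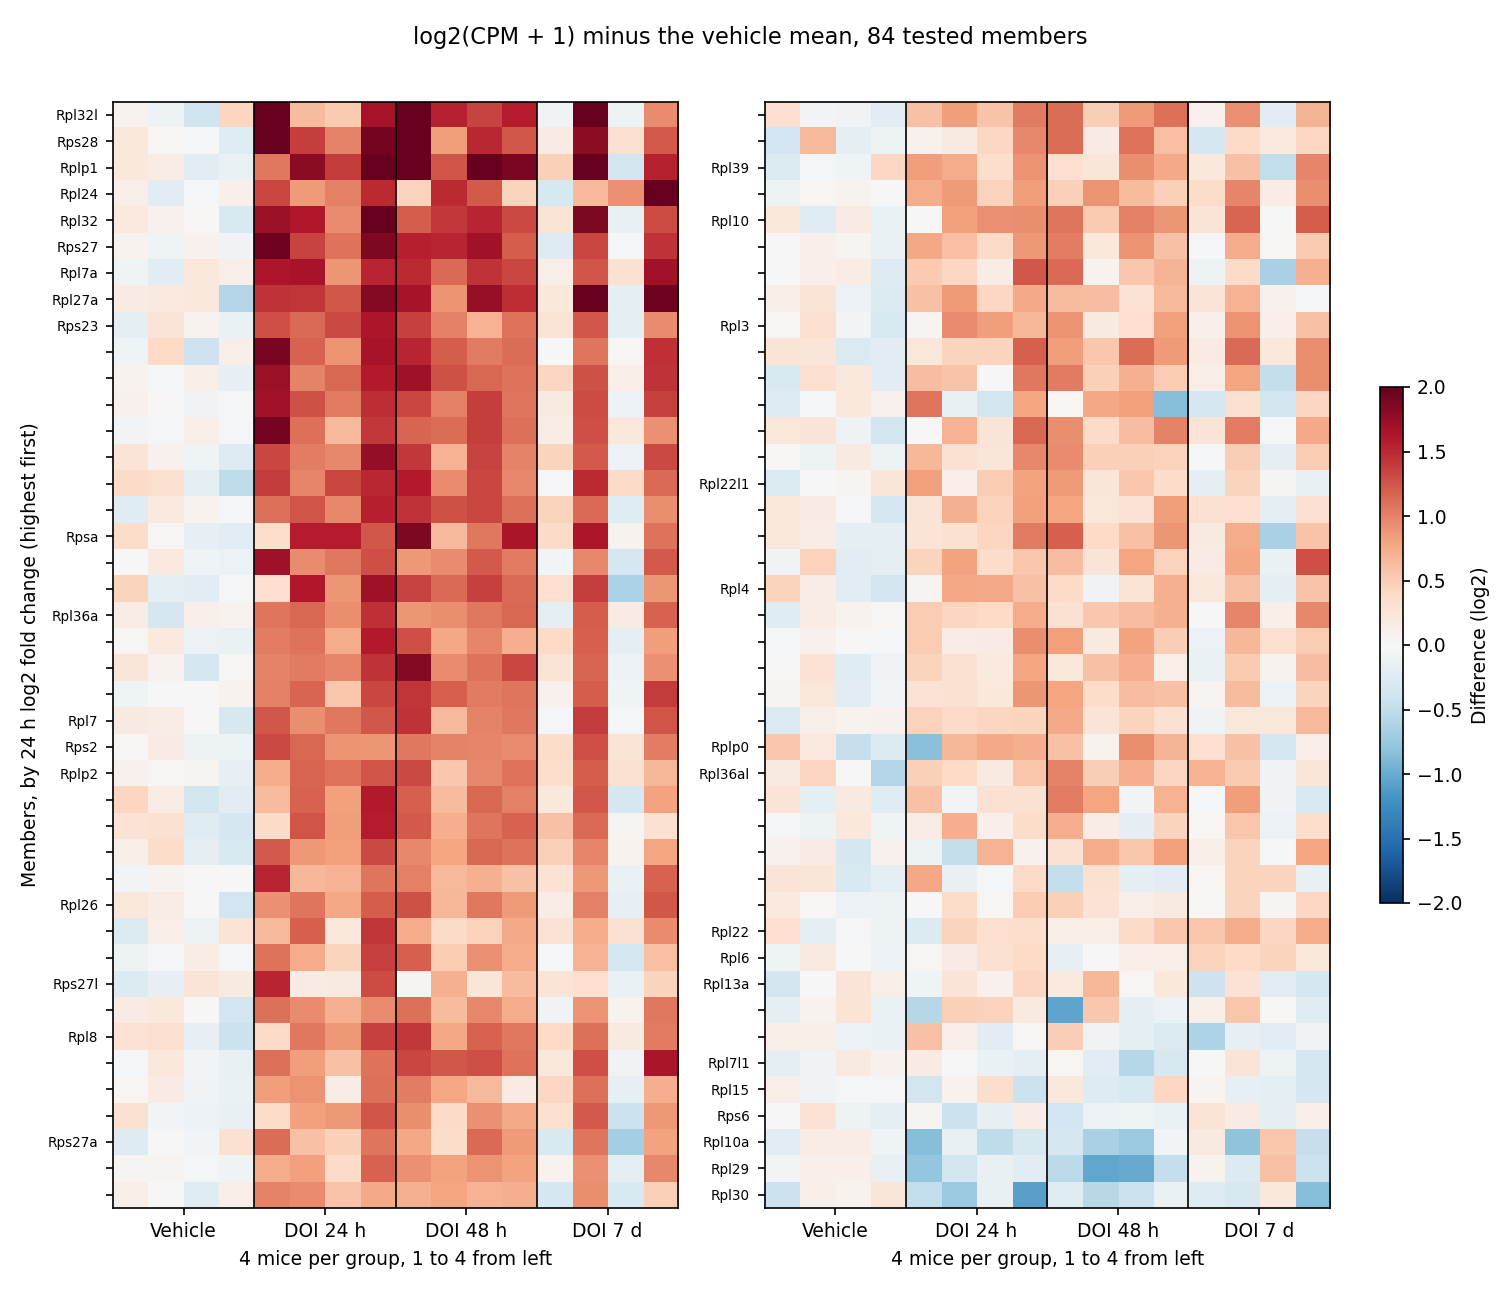
Difference of log2(CPM + 1) from the vehicle mean for the 84 tested members (rows, with the members named in the text labelled, ordered by their 24 h log2 fold change, from the top of the left panel to the foot of the right) in each of 16 mice (columns, 4 per group), with red for higher and blue for lower. Most rows are red in all 24 h and 48 h mice and in 7-day mice 2 and 4, while the last rows, from Rpl13a to Rpl30, are pale or blue.

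At 48 h the members were again higher as a group. The summed level was 3531, 2729, 3232 and 3174 CPM, again above every vehicle mouse. By the same edgeR test 47 of 84 members rose (56%) and 0 fell, against 16.8% of all genes called higher, 13.3% lower and 30.1% in either direction. The median log2 fold change was 0.82, a 1.76-fold difference, against 0.02 for all tested genes, and in 58 members (69%) the 4 mice at 48 h were all above the 4 vehicle mice, against 19.2% of all genes. The rise was seen in 22 of 43 large-subunit genes (1.54-fold to 2.86-fold), in 22 of 31 small-subunit genes (1.47-fold to 2.94-fold) and in Rplp1 and Rplp2. The other call was Rpl32l, which passed the filter on low counts only through DOI mice, with 0 vehicle mice at the filter's level. Rpl23a also had 0 vehicle mice at that level, and both genes are among the 58. The 24 h and 48 h groups are compared with the same vehicle mice, so their values are given side by side and their overlap is not counted.

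Rplp1 had the largest rise of the core genes at 48 h, with 78.7, 42.0, 77.2 and 65.0 CPM (log2 fold change 1.94, SE 0.39, edgeR adjusted p = 0.00282). Rps27 was at 45.3, 44.2, 49.4 and 35.6 CPM (1.56, SE 0.33, edgeR adjusted p = 0.00368) and Rps28 at 40.9, 17.6, 28.6 and 23.7 CPM (1.55, SE 0.37, edgeR adjusted p = 0.00637). In each of these 3 genes every 48 h mouse was above every vehicle mouse. Rpl27a, Rpl7a and Rpl32 rose by 1.52, 1.50 and 1.43 on the log2 scale, and Rpsa, at 40.3, 16.9, 22.7 and 34.2 CPM, by 1.44 (SE 0.36, edgeR adjusted p = 0.00820), this time without overlap. Rps23 and Rps2 rose by 1.20 and 1.04, of which Rps23 lost its call with library 1 only (adjusted p = 0.0576). Rpl24, called at 24 h, missed the line at 48 h (1.44, SE 0.57, edgeR adjusted p = 0.0643), and Rpl10, a protein added late in the maturing of the large subunit, missed it at 24 h (0.73, SE 0.27, edgeR adjusted p = 0.0586) and passed it at 48 h (0.90, SE 0.27, edgeR adjusted p = 0.0207), which is no evidence of a difference between the times. Rpl10 at 24 h was at 28.8 CPM in mouse 1 and 51.2 to 55.5 CPM in the others, and it was called without mouse 1 (adjusted p = 0.0286); its call at 48 h was lost when 48 h mouse 1 or 3 or vehicle mouse 2 or 4 was left out (adjusted p 0.0511 to 0.0658). Rplp0 (0.57, SE 0.34, edgeR adjusted p = 0.203) and Rpl4 (0.32, SE 0.23, edgeR adjusted p = 0.300) were not called. Tested directly, 48 h against 24 h gave 0 called members and 0 at an unadjusted p below 0.05 by edgeR, and 0 by DESeq2, with a median log2 difference of -0.05. The same contrast had 0 calls among all genes (0%), with 1.88% at an unadjusted p below 0.05.

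**Figure D3:**
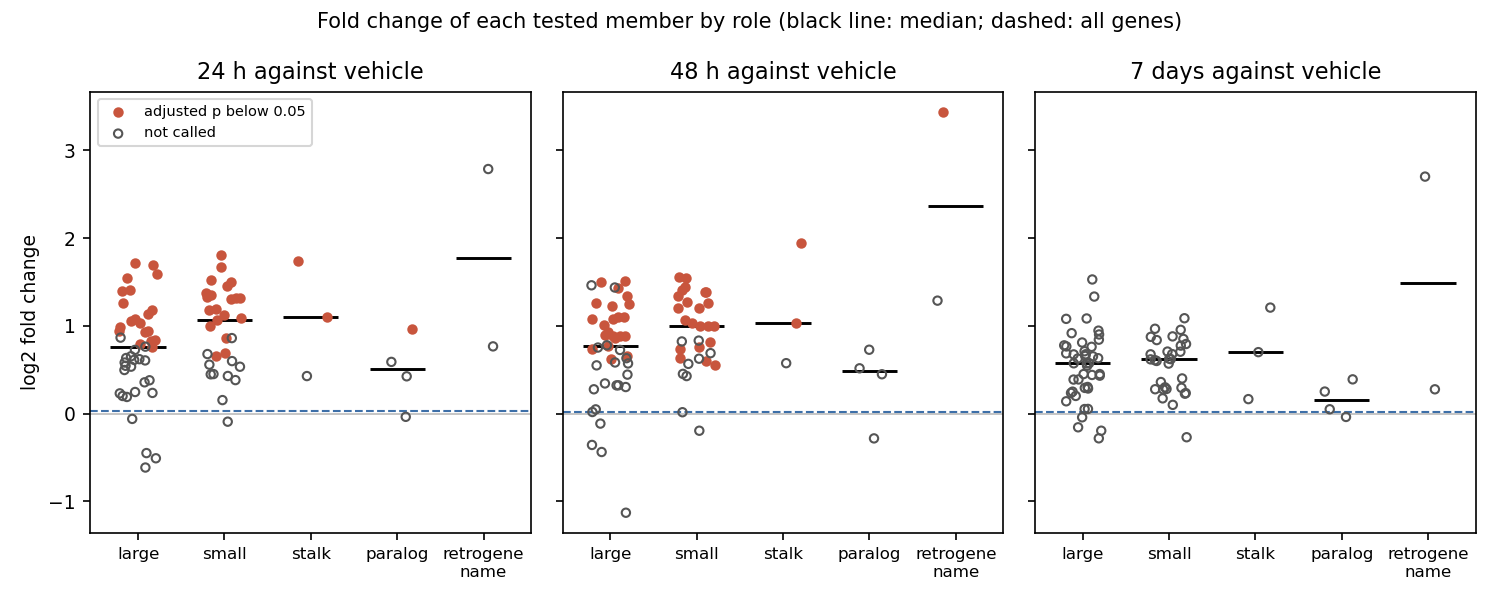
Log2 fold change against vehicle of 83 tested members by role (all tested members but Rps19bp1), with filled points for genes called by edgeR, open points for the others, black lines for the median of each role and a dashed line for the median of all tested genes. The points lie mostly above the dashed line at all 3 times, with filled points at 24 h and 48 h and 0 at 7 days.

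The rise did not extend to every member. At 24 h 6 of 84 members had a negative log2 fold change: Rps6, Rpl15, Rpl7l1, Rpl10a, Rpl29 and Rpl30, of which all but Rps6 and Rpl7l1 are singled out here after their values were seen. Rps6, the small-subunit protein that S6 kinases phosphorylate, was at 28.8, 35.1, 26.4 and 24.6 CPM in vehicle mice. It was at 29.5, 21.0, 25.4 and 31.8 CPM at 24 h and at 21.6, 26.3, 26.7 and 25.8 CPM at 48 h. At 7 days it was at 34.6, 32.2, 24.9 and 31.5 CPM. Its groups overlapped throughout, and its log2 fold change was -0.09 (SE 0.19) at 24 h, -0.20 (SE 0.19) at 48 h and 0.10 (SE 0.19) at 7 days. Rpl30 was at 30.8, 45.0, 43.8 and 49.1 CPM in vehicle mice and at 29.4, 24.4, 37.3 and 19.1 CPM at 24 h, with overlap (-0.62, SE 0.25, edgeR adjusted p = 0.0723), and Rpl10a had -0.45 (SE 0.27, edgeR adjusted p = 0.219). Rpl29, a low-count gene, was the 1 member (1.19% of those tested) whose 24 h and 48 h mice were all below the vehicle mice. Of all genes, 17.2% at 24 h and 19% at 48 h lay wholly below the vehicle mice. Rpl29 was at 2.43 to 3.07 CPM in vehicle mice, 1.22 to 2.41 CPM at 24 h and 0.837 to 1.73 CPM at 48 h. It was not called at either time (48 h: -1.13, SE 0.46, edgeR adjusted p = 0.0705). With total counts in place of TMM factors the median of all genes at 24 h moved from 0.03 to 0.14.

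**Figure D4:**
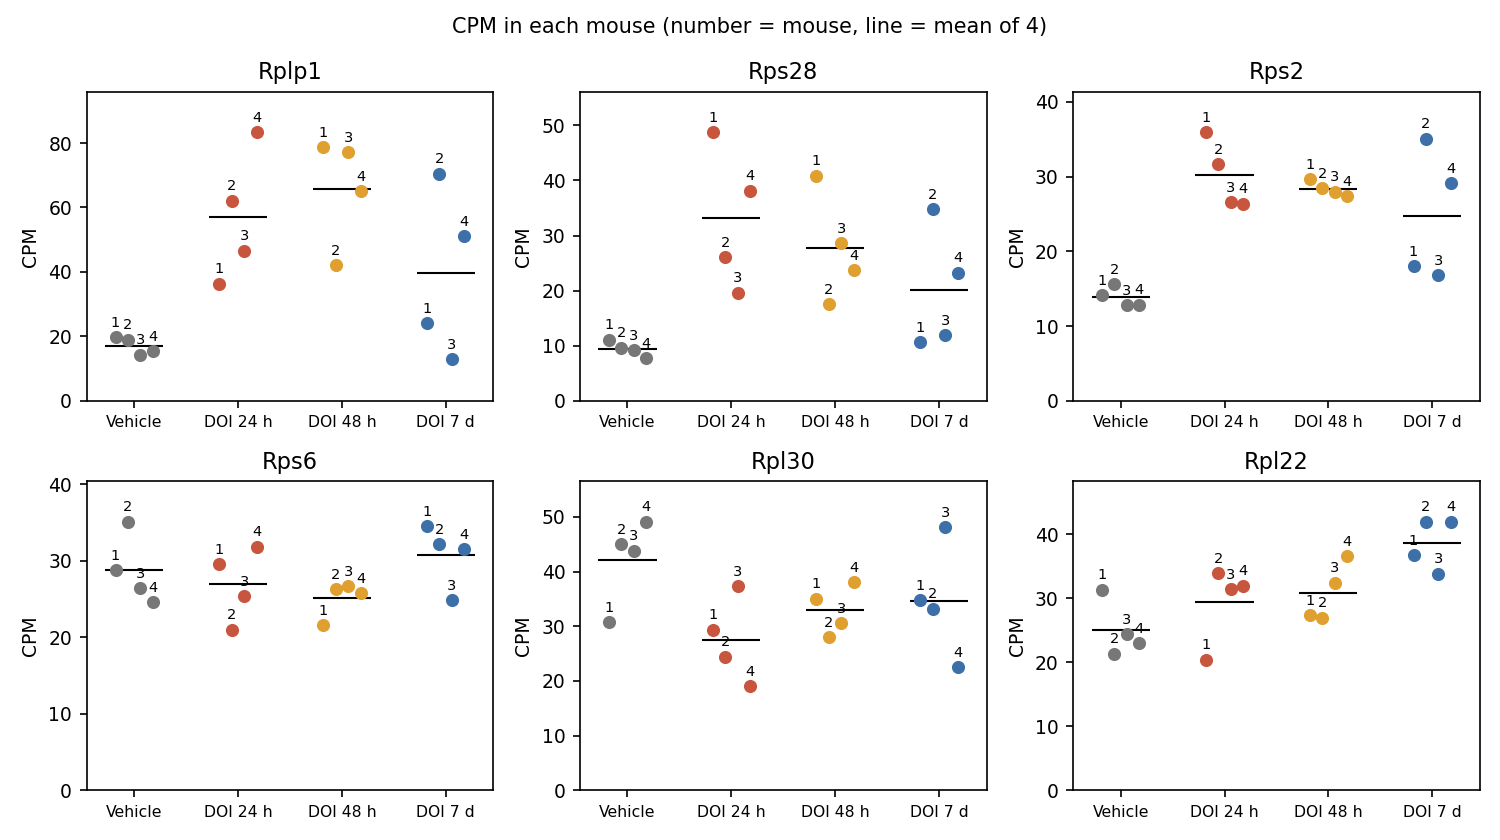
CPM of 6 members in each mouse, on axes from 0, with points numbered by mouse and lines at the mean of 4. Rplp1, Rps28 and Rps2 are higher in all 24 h and 48 h mice than in any vehicle mouse and split at 7 days, Rps6 and Rpl30 overlap between groups, and Rpl22 lies above the vehicle mice in all 4 mice at 7 days.

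At 7 days the members were split in the way described, and 0 were called against vehicle by edgeR, as were 0 of all genes (0%). At an unadjusted p below 0.05 there were 41 members of 84 and 16.8% of all genes, and DESeq2 called 10 members, all higher, and 4.44% of all genes in either direction. The median log2 fold change was 0.57, and 78 of 84 members had a positive one. The median deviation of the members from the vehicle mean was 0.16 in mouse 1 and -0.07 in mouse 3 but 0.94 in mouse 2 and 0.82 in mouse 4, where the 24 h and 48 h mice ranged from 0.59 to 1.10 and the vehicle mice from -0.16 to 0.15. Leaving out 7-day mouse 1 gave 17 called members (7.26% of all genes called) and leaving out mouse 3 gave 22 (6.28% of all genes), all higher, while leaving out mouse 2 or mouse 4 gave 0. Rplp1 shows the split, with 24.1 and 13.0 CPM in mice 1 and 3 and 70.5 and 51.1 CPM in mice 2 and 4 (log2 fold change 1.21, SE 0.39, edgeR adjusted p = 0.136). In 8 members (9.52%) all 4 mice at 7 days were above all vehicle mice, against 2.81% of all genes, and in 0 members all 4 were below, against 3.04%. The smallest p of the members belonged to Rps2, at 18, 35.1, 16.8 and 29.1 CPM (0.84, SE 0.23, edgeR adjusted p = 0.106). Rpl22 was above every vehicle mouse in all 4 mice at 7 days, with mice 2 and 4 again higher than mice 1 and 3. It was at 31.3, 21.4, 24.4 and 23.0 CPM in vehicle mice and at 36.8, 42.0, 33.9 and 42.0 CPM at 7 days. It was not called (0.63, SE 0.20, edgeR adjusted p = 0.138) except by DESeq2 (adjusted p = 0.0404). Rpl6, singled out after its values were seen, was also above every vehicle mouse in all 4 mice at 7 days, without that order. It was at 72.7 to 89.6 CPM in vehicle mice and at 109, 104, 108 and 92.8 CPM at 7 days (0.39, SE 0.15, edgeR adjusted p = 0.199). Against 24 h and against 48 h the 7-day group gave 0 called members by edgeR and by DESeq2, with a median log2 difference of -0.33 in both, and 12 and 7 members of 84 at an unadjusted p below 0.05, beside 14.2% and 16.5% of all genes. This is no excess of members. The calls among all genes in these contrasts were 0.00557% and 0%. When the 4 groups were tested together, edgeR called 36 of 84 members (42.9%), against 18.8% of all genes. That count was 12 to 16 when any 1 vehicle mouse was left out, with 8% to 9.97% of all genes called, 23 without 24 h mouse 2 (13.7% of all genes) and 19 without 24 h mouse 4 (12.5%).

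Paralogs of core ribosomal genes, some of which replace their parent in other tissues, were silent in some cases. Among those tested, 1 of 4 (25%) was called at 24 h and 0 of 4 at 48 h. Of all genes 24.2% and 30.1% were called, so these counts show nothing particular to paralogs. Rpl10l, a testis gene, had 0 counts in all mice, Rpl39l had 1 count, and Rpl3l, a striated muscle gene, reached 2.80 CPM in 1 mouse (7-day mouse 2) and at most 1.16 CPM in the others. Of the 4 paralogs that could be tested, Rps27l, which is known as a p53 target, rose at 24 h (8.21 to 12.4 CPM in vehicle mice, 30.9, 11.5, 11.7 and 26.5 CPM at 24 h; log2 fold change 0.97, SE 0.32, edgeR adjusted p = 0.0353). Mice 1 and 4 carried that rise, the groups overlapped, and the call was lost without either (adjusted p = 0.134 and 0.119) and without vehicle mouse 1, 2 or 4 (0.0586 to 0.100). It was also lost with the mouse number as a block (0.0646), with no filter (0.0537) and with library 1 only (0.0916). Its parent Rps27 rose without overlap, as given above. Rpl22l1 had a higher per-length level than most core genes (22.7 CPM per kb over all mice) and missed the line at 24 h (0.59, SE 0.21, edgeR adjusted p = 0.0510), but passed it under DESeq2 (adjusted p = 0.0291), 5 other settings and without 24 h mouse 2 (0.0329). The line was also missed by its parent Rpl22 (0.23, SE 0.20, edgeR adjusted p = 0.408). Rpl7l1, which works in ribosome assembly, had -0.04 (SE 0.24, edgeR adjusted p = 0.923), where its parent Rpl7 rose by 1.14 (SE 0.29, edgeR adjusted p = 0.0120). Rpl36al had 0.42 (SE 0.31, edgeR adjusted p = 0.332) at 24 h and 0.73 (SE 0.31, edgeR adjusted p = 0.0849) at 48 h. Every 48 h mouse was above every vehicle mouse, and DESeq2 called it (adjusted p = 0.0463). Its parent Rpl36a rose by 1.26 at 24 h (SE 0.31, edgeR adjusted p = 0.00974) and by 1.10 at 48 h (edgeR adjusted p = 0.0155). The 48 h rise was no longer called without vehicle mouse 2 (adjusted p = 0.0527). The parents Rpl3 (0.65, edgeR adjusted p = 0.0510) and Rpl39 (0.76, edgeR adjusted p = 0.0866) were not called, and Rpl26, whose paralog is not among the tested members, rose by 1.03 (edgeR adjusted p = 0.0156; 0.0529 without vehicle mouse 4). The differences between paralog and parent were not tested. Rpl3 lay close to the line at 24 h: it was called under 7 other settings, DESeq2 among them (adjusted p = 0.0303), and without 24 h mouse 1 (0.0252), and Rpl39 under 2.

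The retrogene-type Rpl32l, a single-exon gene on chromosome 10 (20208490 to 20208888, GRCm38), had 4, 2, 0 and 8 counts in the vehicle mice, 32, 7, 7 and 27 at 24 h, 52, 17, 16 and 22 at 48 h and 3, 66, 2 and 11 at 7 days. The filter kept genes that reached 1.26 CPM in at least 4 mice. Rpl32l did so in all 4 of the 48 h mice, in 2 each of the 24 h and 7-day mice and in 0 vehicle mice, so it was tested only because DOI mice were high, and its fitted values are a description. They were 3.44 on the log2 scale at 48 h (SE 1.03, edgeR adjusted p = 0.0194), a call lost without 48 h mouse 1 (adjusted p = 0.0544) or vehicle mouse 2 (0.0558). At 24 h the gene missed the line (2.79, SE 1.02, edgeR adjusted p = 0.0543) and passed it under 5 other settings, DESeq2 among them (adjusted p = 0.0171), and without 24 h mouse 3 (0.0494). Its name marks it as a likeness of Rpl32, and reads that match both are not counted, so its level is uncertain. Rpl24, Rpl37rt and Rpl23a, the last named after its values were seen, also had fewer than 4 vehicle mice at that level. Rpl37rt had 0.77 (SE 0.62) at 24 h and was not called, and Rps19bp1 had 0.28 (SE 0.26, edgeR adjusted p = 0.446). Members free of any overlapping annotated exon, a split chosen after the data were seen, gave these counts: 28 of 45 (62.2%) at 24 h and 30 of 45 (66.7%) at 48 h. Of those that also have no named pseudogene 10 of 15 (66.7%) and 11 of 15 (73.3%) were called. The 48 h counts of 30 and 11 include Rpl32l, which was tested only because DOI mice were high. The 42 members with exon models up to the median length of 1754 bases had 25 calls at 24 h and a median log2 fold change of 0.93, and the 42 longer ones 18 calls and 0.67. Across members the 24 h log2 fold change and the exon length had a Spearman rho of -0.26.

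The neighbours of these genes in the translation machinery did not move as 1 block. Some ribosomal genes fall outside the name rule. Fau, which encodes Rps30 fused to a ubiquitin-like protein, rose from a mean of 14.1 to 45.6 CPM at 24 h (log2 fold change 1.69, SE 0.35, edgeR adjusted p = 0.00401). Rack1, a scaffold on the small subunit, had -0.04 (SE 0.16, edgeR adjusted p = 0.882) at a mean of 191 CPM in vehicle mice. Of 16 other mRNAs known for a TOP tract, 5 rose and 0 fell at 24 h (31.2%) and 6 rose and 0 fell at 48 h (37.5%), with median log2 fold changes of 0.53 and 0.44. Of all genes 13.8% and 16.8% were called higher. Among them Eef1a1, which brings aminoacyl-tRNA to the ribosome, rose from 58.5 to 177 CPM (1.60, SE 0.34, edgeR adjusted p = 0.00454) and Pabpc1, the poly(A)-binding protein, by 0.90 (SE 0.24, edgeR adjusted p = 0.0148). Of 9 elongation factors 2 rose at 24 h, Eef1a1 and Eef1g, both also in the list of TOP mRNAs, and 0 fell, while the neuronal form Eef1a2 had -0.67 (SE 0.38, edgeR adjusted p = 0.197). Of 37 initiation factors 6 were higher and 6 lower at 24 h, and 4 higher and 8 lower at 48 h. Thus 32.4% were called at each time, near the 24.2% and 30.1% of all genes. Eif3h rose by 0.92 (edgeR adjusted p = 0.00886), whereas Eif5 fell by 1.23 (edgeR adjusted p = 0.00354) and Eif4e, the cap-binding protein, fell by 0.72 (edgeR adjusted p = 0.00968).

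Among genes that build ribosomes and genes for the ribosomal proteins of mitochondria, lower calls outnumbered higher ones. Of all genes 10.4% were called lower at 24 h and 13.3% at 48 h. Of 35 ribosome biogenesis genes 1 rose and 7 fell at 24 h, and 2 rose and 11 fell at 48 h, with medians of -0.41 and -0.31 (22.9% and 37.1% called). Nop56, a core protein of box C/D small nucleolar particles, fell from 445 to 188 CPM (log2 fold change -1.24, SE 0.28, edgeR adjusted p = 0.00648), and Heatr1 and Bms1, of small-subunit processing, fell by 0.85 and 0.86. Of 77 tested mitochondrial ribosomal protein genes 3 rose and 12 fell at 24 h, and 1 rose and 19 fell at 48 h, with medians of -0.13 and -0.20 (19.5% and 26% called, below the 24.2% and 30.1% of all genes). Mrpl24 fell from 81.5 to 34.4 CPM at 24 h (-1.24, SE 0.23, edgeR adjusted p = 0.00290) and Mrps30 from 38.5 to 18 CPM (-1.10, SE 0.21, edgeR adjusted p = 0.00308). In the list of mTOR and TOP regulators 4 rose and 3 fell of 17 at 24 h, and 4 each at 48 h. Tsc2, which restrains mTOR complex 1, rose by 1.39 (SE 0.29, edgeR adjusted p = 0.00407), as did Rptor, a subunit of that complex, by 0.96 (SE 0.20, edgeR adjusted p = 0.00394), while Rictor, of complex 2, fell by 0.85 (edgeR adjusted p = 0.00555). Of 7 tested noncoding hosts of small nucleolar RNAs, whose transcripts also carry TOP tracts, Snhg8 rose by 2.24 (SE 0.43, edgeR adjusted p = 0.00329) and Gas5 by 0.71 (edgeR adjusted p = 0.0467) at 24 h, and Snhg8 alone of the 7 was called at 48 h. At 7 days 0 genes of these lists were called. No list was tested against the others.

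**Figure D5:**
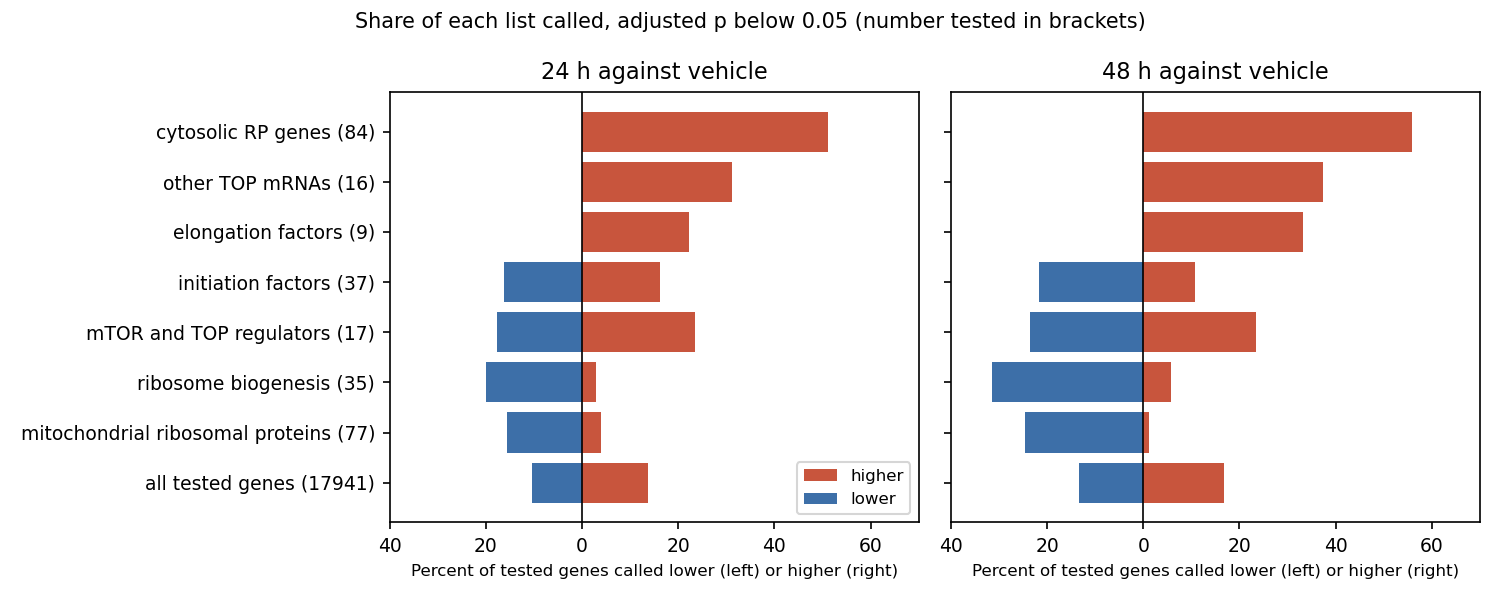
Percent of the tested genes of each list that edgeR called higher (right) or lower (left) at 24 h and 48 h, with the number tested in brackets and all 17941 tested genes at the foot. Cytosolic ribosomal protein genes have 51.2% and 56% called higher and 0 lower, while ribosome biogenesis and mitochondrial ribosomal protein genes have more of their calls lower.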

How the data were processed

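RNA of NeuN-sorted frontal cortex nuclei was measured in 32 libraries of 16 mice. What the authors deposited is 1 file of raw counts for each library. Its header records featureCounts v2.0.0, run on exons grouped by Ensembl gene of the GRCm38 annotation, per the file headers; strand-specific, paired-end, multi-mapping and multi-overlap counting were not switched on. Reads from near-identical copies or shared exons were therefore left out, and antisense reads count toward the gene. The aligner of the RNA reads is not given in the sources used here, and the submitters' processing notes name Trim Galore 0.6.5. Totals per library ran from 2763704 to 7436451 counts. The 3-count floors cover counting error only. The H3K27ac samples were not analysed here.

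The 2 libraries of a mouse were summed, as their member sums differed by at most 1.10-fold; 0 pairs of libraries were identical. By the label numbers, same-numbered mice of different groups did not deviate together on average, and mouse numbers were used as names only. A single edgeR 4.0.16 fit (R 4.3.3) over 4 groups used filterByExpr, TMM factors and glmQLFTest, and a standard error is the log2 fold change over the root of F. CPM are TMM-scaled. Gene symbols were matched for 55141 IDs (99.53%). The fit was tested on simulated data. Promoter sequences are from RefSeq.

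The members and lists were chosen with earlier results of these data known. Named were the 8 called members that differed most upward and the 8 that differed most downward, per DOI group (where none was called, the smallest p), and always the stalk genes, Rpsa, Rps6, Rps27a, the 3 highest per length, and the paralogs with their parents; of other lists up to 4 genes of smallest p, and Fau and Rack1. Some genes under this rule are not reported here. Alternatives were DESeq2 1.42.0, other scaling, other filters, a fit to just the pair of groups in question, a block on mouse number, each library alone and each mouse left out; thinning, the 18S covariate and the splits by overlap were added after seeing the data.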

Additional observations from a re-analysis of the deposited data

Results flagged for a closer look

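Among 124 groups of 4 values screened (the sum and subunit ratio of the members, their median deviation, and the named members), in 5 a single mouse lay well away from the rest (by chance about 1 in 20 would). The ratio of large-subunit to small-subunit CPM was 1.61 in 48 h mouse 4 and 1.44 to 1.46 in the others. In 24 h mouse 1 Rplp0 was at 8.22 CPM against 25.1 to 27, and Rpl10 at 28.8 CPM against 51.2 to 55.5. Rpl27a was at 7.30 CPM in vehicle mouse 4 against 12.9 to 13.5, and Rpl32l at 7.53 CPM in 48 h mouse 1 against 2.37 to 2.92.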

How the results depend on the processing

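At 24 h the planned settings other than leaving out mice gave 39 to 58 called members (at 58, with just the 24 h and vehicle groups fitted, 1 was lower) and at 48 h 41 to 59, and the median stayed positive. Over these settings 13% to 36.7% and 15.5% to 41.5% of all genes were called. At 7 days DESeq2 called 10 members and a fit with no filter on low counts 8. Leaving out 1 mouse gave 28 to 45 calls for 24 h against vehicle (1 of the 45, without 24 h mouse 3, was lower), 35 to 42 for 48 h, 0 to 22 for 7 days and 12 to 42 for any difference, and 0 in each comparison between DOI groups. Of all genes 13.9% to 21.2%, 19% to 26.4% and 0% to 7.26% were then called in the 3 comparisons with vehicle, and 8% to 24.3% in the test for any difference. The members' medians ran from 0.68 to 0.86, 0.71 to 0.90 and 0.37 to 0.73. The test for any difference gave 15, 16, 13 and 12 calls without vehicle mouse 1, 2, 3 and 4, 23 without 24 h mouse 2 and 19 without 24 h mouse 4, where 8.04%, 8%, 9.97%, 8.89%, 13.7% and 12.5% of all genes were called.

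With the 18S level as a covariate, chosen after seeing the data, member calls were 0 at 24 h, 0 at 48 h and 0 for any difference, with 0%, 0% and 0.0279% of all genes called, and the medians of the 24 h and 48 h groups were -0.032 and -0.14. The 7-day median was 0.099. The cause was not tested. Among named members called without it, log2 fold changes then turned negative at 24 h and 48 h for Rpl26 (-0.24, -0.35), Rpl27a (-0.58, -0.77), Rpl36a (-0.019, -0.25), Rpl7 (-0.25, -0.43), Rpl8 (-0.13, -0.011), Rplp1 (-0.35, -0.25) and Rpsa (-0.24, -0.20), and at 48 h for Rpl10 (-0.47), Rpl32 (-0.20), Rpl32l (-0.16) and Rps23 (-0.054). Of those not called without it, Rpl10 (-0.59) and Rpl32l (-0.37) turned at 24 h, and Rps27a, Rpl3, Rpl4, Rpl39, Rplp0 and Rpl22 at both times. With a mouse left out, the named members gave 626 values on the same side of the threshold, 20 that lost it, 26 that passed it and 0 that turned.

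By the label numbers, same-numbered mice of different groups did not deviate together on average (mean correlation of deviations -0.04, from -0.28 to 0.24 over 24 pairs). The file headers give another number for 3 mice, so this check cannot settle whether the numbers pair mice. With the mouse number as a replicate block, 39 members were called at 24 h (20.4% of all genes), 44 at 48 h (26% of all genes), 0 at 7 days (0%) and 25 for any difference (13.4%). Rpl24, with 8 counts in a vehicle mouse, lost its call at 24 h under the block (adjusted p = 0.0533) and with library 2 only (0.115), and gained one at 48 h under DESeq2 (0.0393), with library 1 only (0.0423), with just the groups compared (0.0267) and with counts thinned (0.0353). Rps27l lost its call at 24 h under the block too (0.0646). With a single library, calls at 48 h were lost for Rps23 (library 1, 0.0576) and Rpl26 (library 2, 0.0527).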
